A study of Mus musculus with 28 samples.

Results

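The binding of the cofactor Ldb1 was compared with that of CTCF in mature olfactory sensory neurons of the mouse, as mapped by chromatin immunoprecipitation and sequencing (ChIP-seq). The comparison took the 5 libraries of these factors from control neurons, 3 for Ldb1 and 2 for CTCF, of the 28 samples in the series. Ldb1 was precipitated with the antibody sc-11198 from Santa Cruz, and CTCF with the antibody 07-729 from Millipore. Both groups carried the same genotype, OMP-IRES-GFP, a green fluorescent reporter at Omp, a gene of mature olfactory neurons, which marks them whatever receptor they express. The main olfactory epithelium was dissociated, and its cells were formaldehyde-fixed and then sorted for chromatin precipitation. Age and sex are not given in the labels, nor is it stated whether libraries came from separate animals, so that p-values measure the spread between libraries, which may be technical. The lists hold peak positions without RNA levels, and the purity of the sorted cells was not checked here. Only peaks on the autosomes, chromosomes 1 to 19, and on X and Y entered. Peaks of 1 factor that shared at least 1 base were linked, and a linked group with peaks of at least 2 libraries was called a region. Positions are in build mm10. This gave 22789 Ldb1 regions and 24877 CTCF regions.

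Ldb1 binds no DNA itself. Partner proteins such as Lhx2, a transcription factor of the LIM-homeodomain class, hold it on chromatin, and it joins distant sites by pairing with itself. CTCF binds DNA through its zinc fingers, halts the cohesin ring and marks domain boundaries. In olfactory neurons Lhx2 and Ebf factors act together at the enhancers of odorant receptor genes, and each mature neuron expresses a single receptor gene.

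The promoters with the strongest regions of 1 factor, or of both, are shown for the letters that partners of Ldb1 and CTCF itself recognise. Each window ran from 250 bases before to 50 bases after a gene start, and sequences are from RefSeq in build GRCm38.p6 (mm10), written 5′ to 3′ along the gene. Short letter patterns were searched on both strands. They were CCCNNGGGA for Ebf factors, TAATTA or TAATTG for Lhx2, and CNAGGNGGC for CTCF, where N is any base. Capitals mark these matches, none of which overlap here. A match is a description of letters and not a site. Of all 32815 windows, 6.56% held the Ebf letters, 12.4% the Lhx2 letters and 8.38% the CTCF letters. Shown first are the coding-gene windows with the highest-ranked Ldb1 regions centred in them and no CTCF peak.
Cntn4 promoter (chr6:106118692-106118991, plus strand): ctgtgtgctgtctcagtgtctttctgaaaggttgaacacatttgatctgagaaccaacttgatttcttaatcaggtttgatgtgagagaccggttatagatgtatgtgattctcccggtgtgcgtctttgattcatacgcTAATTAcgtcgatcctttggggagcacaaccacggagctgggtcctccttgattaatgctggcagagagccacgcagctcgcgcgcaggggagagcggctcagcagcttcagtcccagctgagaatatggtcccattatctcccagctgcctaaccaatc
Sult1d1 promoter (chr5:87568957-87569256, minus strand): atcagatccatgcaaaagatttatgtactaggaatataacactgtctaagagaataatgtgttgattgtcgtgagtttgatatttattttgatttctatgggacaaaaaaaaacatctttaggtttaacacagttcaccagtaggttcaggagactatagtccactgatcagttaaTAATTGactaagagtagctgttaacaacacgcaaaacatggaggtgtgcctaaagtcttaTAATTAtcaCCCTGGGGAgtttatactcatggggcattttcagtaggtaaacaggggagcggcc
Gadl1 promoter (chr9:115909205-115909504, plus strand): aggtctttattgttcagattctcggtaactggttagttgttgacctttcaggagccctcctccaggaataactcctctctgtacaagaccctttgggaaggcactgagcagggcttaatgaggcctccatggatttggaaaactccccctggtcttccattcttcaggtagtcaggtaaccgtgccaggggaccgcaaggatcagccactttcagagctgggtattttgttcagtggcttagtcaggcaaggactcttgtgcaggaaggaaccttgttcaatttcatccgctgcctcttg
Cntn4, which encodes a cell adhesion molecule of axons, had Lhx2 letters starting at -110 from the gene start. Its Ldb1 region was centred at -62, and its peak scored 311, 375 and 208 in the Ldb1 libraries. Sult1d1, a sulfotransferase gene, had Lhx2 letters at -74 and -14 and Ebf letters at -5, with the region centred at 2 bases after the start. Gadl1, which encodes a decarboxylase-like enzyme, held none of the patterns. Scores are the authors' own values per peak and rank peaks only within a list.

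The counterparts are windows with the highest-ranked CTCF regions centred in them and no Ldb1 peak, followed by windows with regions of both factors.
Med4 promoter (chr14:73509799-73510098, plus strand): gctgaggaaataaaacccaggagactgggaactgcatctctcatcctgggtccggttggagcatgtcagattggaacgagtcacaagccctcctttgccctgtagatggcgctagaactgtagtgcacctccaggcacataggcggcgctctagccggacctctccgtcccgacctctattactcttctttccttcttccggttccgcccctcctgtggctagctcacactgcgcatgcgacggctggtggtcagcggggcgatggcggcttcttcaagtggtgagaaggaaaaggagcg
Abca14 promoter (chr7:120203714-120204013, plus strand): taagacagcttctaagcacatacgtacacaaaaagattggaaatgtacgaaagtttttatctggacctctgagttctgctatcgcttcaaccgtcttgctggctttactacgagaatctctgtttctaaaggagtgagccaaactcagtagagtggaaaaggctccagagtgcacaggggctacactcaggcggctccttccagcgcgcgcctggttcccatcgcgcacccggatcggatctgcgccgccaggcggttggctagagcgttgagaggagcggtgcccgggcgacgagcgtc
Rsad1 promoter (chr11:94549158-94549457, minus strand): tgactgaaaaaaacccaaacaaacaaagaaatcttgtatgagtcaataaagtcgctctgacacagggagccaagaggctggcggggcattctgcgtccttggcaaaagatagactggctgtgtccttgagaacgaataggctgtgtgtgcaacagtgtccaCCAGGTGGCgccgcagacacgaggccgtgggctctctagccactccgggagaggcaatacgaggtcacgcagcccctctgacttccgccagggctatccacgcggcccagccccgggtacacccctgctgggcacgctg
Vps18 promoter (chr2:119288492-119288791, plus strand): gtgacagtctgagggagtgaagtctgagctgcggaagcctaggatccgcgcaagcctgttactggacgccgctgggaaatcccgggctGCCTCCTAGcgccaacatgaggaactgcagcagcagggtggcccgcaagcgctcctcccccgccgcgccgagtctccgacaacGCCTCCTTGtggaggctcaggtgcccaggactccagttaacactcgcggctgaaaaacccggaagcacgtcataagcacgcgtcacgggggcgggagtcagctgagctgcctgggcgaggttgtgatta
Rgs9 promoter (chr11:109298132-109298431, minus strand): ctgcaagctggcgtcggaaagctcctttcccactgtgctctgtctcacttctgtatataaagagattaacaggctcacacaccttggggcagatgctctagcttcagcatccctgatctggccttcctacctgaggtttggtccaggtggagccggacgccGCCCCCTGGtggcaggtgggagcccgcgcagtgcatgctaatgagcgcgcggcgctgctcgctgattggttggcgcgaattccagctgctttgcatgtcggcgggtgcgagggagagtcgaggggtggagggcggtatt
Med4, which encodes a Mediator subunit, and Abca14, a transporter gene, held none of the patterns. Rsad1 held the CTCF letters at -89. Vps18, a vacuolar sorting gene, held them at -162 and -79, and Rgs9, a regulator of G-protein signalling, at -89. At Vps18 the Ldb1 peaks scored 27, 36 and 16, and the CTCF peaks 102 and 339. At Rgs9 the Ldb1 peaks scored 26, 38 and 16, and the CTCF peaks 71 and 192. In these shared windows the Ldb1 region stood near the middle of its own ranking, at the 45.9th percentile for Vps18 and the 46.0th for Rgs9, and the CTCF region near the top, at the 99.7th and 97.3rd percentiles.

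The 3 Ldb1 lists held 24877, 28879 and 16067 peaks, and the CTCF lists 27609 and 34210. Read numbers were not in the lists, so the depth behind a peak is unknown and a list's length is no measure of binding. All 3 Ldb1 libraries had a peak in 14851 of the 22789 Ldb1 regions (65.2%). The libraries shared most of their peaks within a factor: 93.7% of the peaks in Ldb1 replicate 3 overlapped a peak of replicate 1, and 90.1% of the peaks in CTCF replicate 1 overlapped a peak of replicate 2. Of the longer lists, 78.2% of the peaks in Ldb1 replicate 2 and 72.7% of those in CTCF replicate 2 lay in a region of their factor. With 3 libraries against 2 there are 10 assignments, and the exact permutation test over libraries cannot give a p below 0.1. No difference between the factors could therefore pass 0.05 by this test.

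Ldb1 peaks lay inside gene bodies more often than CTCF peaks. The gene body class held peaks within any annotated gene and more than 1 kb from a gene start. It took 57.2%, 57.4% and 60.05% of the peaks in the Ldb1 libraries, against 51.0% and 48.0% in the CTCF libraries. All Ldb1 libraries stood above both CTCF libraries. The means were 58.2% ± 1.59 for Ldb1 (SD, n = 3) and 49.5% ± 2.18 for CTCF (SD, n = 2), a difference of 8.70 percentage points (exact permutation test, two-sided, p = 0.1, with Benjamini-Hochberg adjustment over 8 tests 0.133). Of positions placed every 10 kb along the chromosomes, 45.3% fell in this class.

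The sites just outside genes went the other way. Peaks outside gene bodies but within 10 kb of one, and not at a start, made up 11.8%, 11.8% and 12.7% of the Ldb1 libraries and 20.5% and 17.97% of the CTCF libraries. The groups did not overlap. This class was not among the tested results and has no p-value. Positions every 10 kb gave 14.8%.

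The promoter share did not separate the factors. Peaks within 1 kb of a gene start made up 15.6%, 15.1% and 10.7% of the Ldb1 libraries, against 13.0% and 21.2% of the CTCF libraries. The groups overlapped, and CTCF replicate 2 was the highest of all. Ldb1 averaged 13.8% ± 2.72 (SD, n = 3) and CTCF 17.1% ± 5.79 (SD, n = 2), a difference of -3.27 points (exact permutation test, two-sided, p = 0.6, adjusted 0.6). Without CTCF replicate 2 the difference was 0.826, and without CTCF replicate 1 it was -7.37. In the regions, which need several libraries, the shares were 13.5% for Ldb1 (Wilson 95% interval 13.1% to 13.97%) and 13.5% for CTCF (13.1% to 13.97%), against 4.78% of positions every 10 kb. Intervals here and below cover counting error only.

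Lists of equal length gave another picture of promoters. With each list limited to its 16067 top-scoring peaks, the length of the shortest, the promoter share was 11.05%, 10.1% and 10.7% in the Ldb1 libraries and 12.6% and 18.8% in the CTCF libraries. The groups were then apart, with a difference of -5.13 points (exact permutation test, two-sided, p = 0.1).

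Distal peaks, more than 10 kb from any gene, took 15.4%, 15.6% and 16.6% of the Ldb1 libraries and 15.4% and 12.9% of the CTCF libraries. The lowest Ldb1 library and the highest CTCF library were almost equal. The difference was 1.71 points (exact permutation test, two-sided, p = 0.2, adjusted 0.229), 2.98 without CTCF replicate 1, 0.433 without CTCF replicate 2 and 2.91 in lists of equal length. Both factors were far below positions every 10 kb, of which 35.1% were distal.

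**Figure D1:**
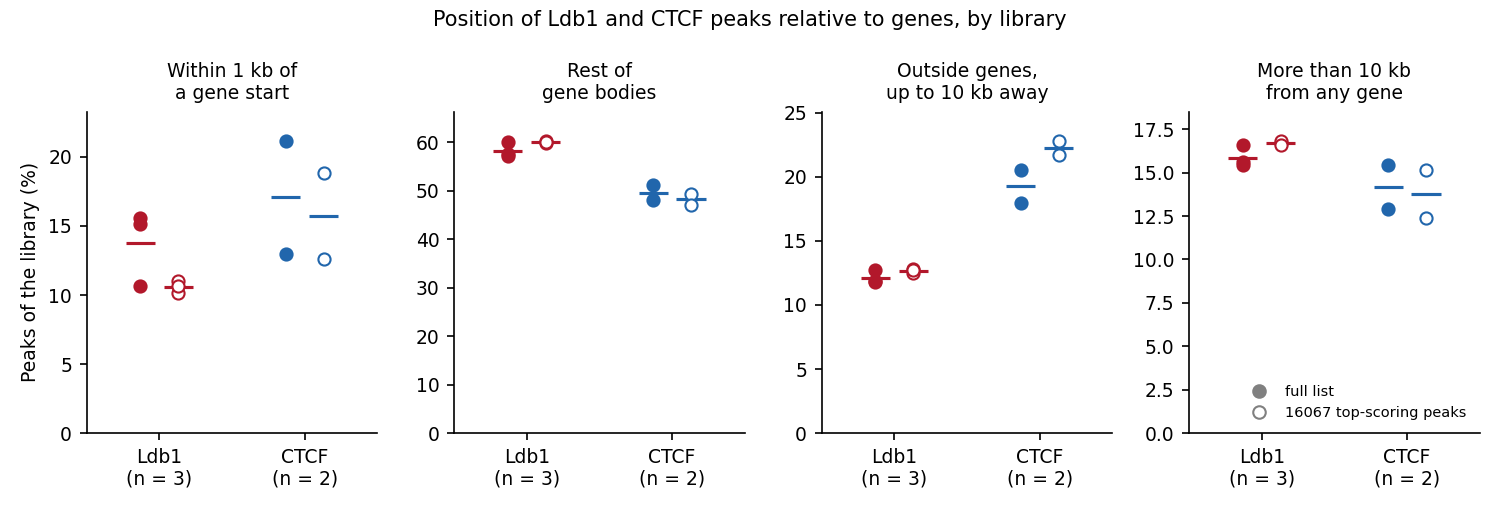
Share of the peaks of each library (y axis, percent) in 4 classes of position relative to genes, for Ldb1 (3 libraries) and CTCF (2 libraries). Each point is a library, filled for the full list and open for the 16067 top-scoring peaks, and short lines are means; Ldb1 lies above CTCF in gene bodies (58.2% against 49.5% on average) and the groups overlap at gene starts in the full lists.

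Ldb1 peaks with high scores lay less often at a gene start than those with low scores. In Ldb1 replicate 1 the promoter share was 5.95% among the strongest 10% of peaks by score and 26.1% among the weakest 10%. Replicate 2 had 6.06% and 24.5%, and replicate 3 had 5.66% and 17.8%. The order was the same in all 3 libraries. CTCF replicate 1 showed nearly equal shares, 12.9% among its strongest and 13.1% among its weakest 10%. CTCF replicate 2 had 32.0% among its strongest, 29.6% among its weakest and 14.6% in between, at its lowest, so that the CTCF libraries did not share a trend. Among regions ranked by their mean percentile, 5.79% of the strongest 10% of Ldb1 regions lay at a gene start and 23.8% of the weakest 10%, against 18.8% and 8.60% for CTCF regions.

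**Figure D2:**
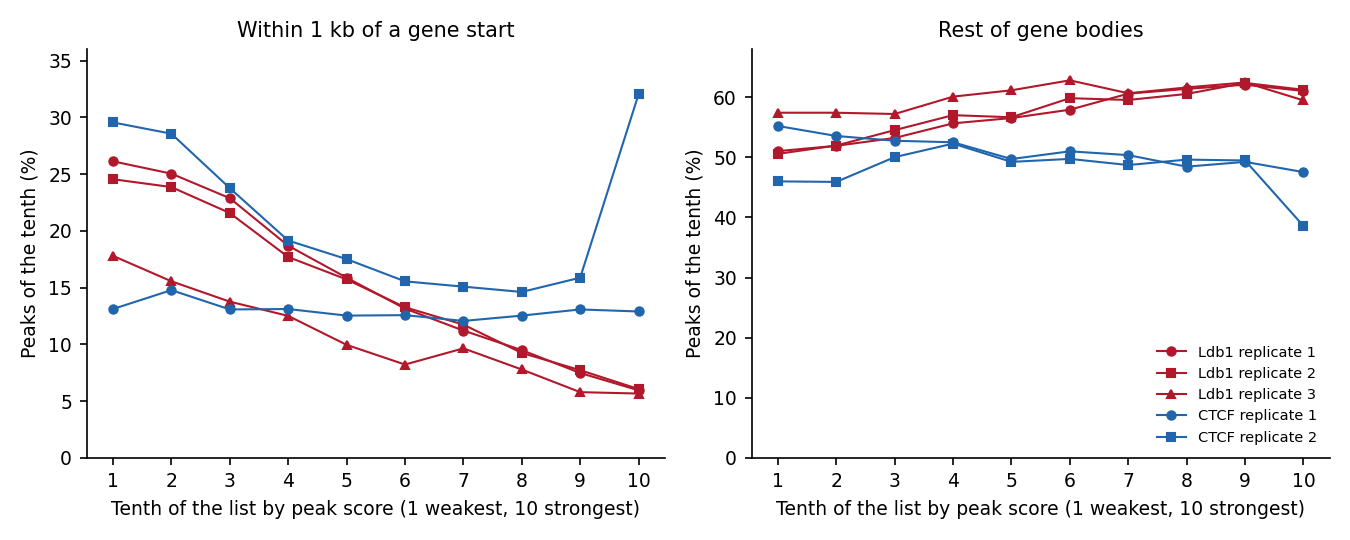
Share of peaks within 1 kb of a gene start (left) and in the rest of gene bodies (right), in percent, for successive steps of 10% of a library's list ordered by the authors' peak score (x axis, 1 weakest to 10 strongest), with 1 line per library. In the Ldb1 libraries the share at gene starts is lowest among the strongest 10% (5.66% to 6.06%), and in CTCF replicate 2 it reaches 32.0% there.

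Ldb1 sites were more often close to one another than CTCF sites when lists of equal length were compared. In lists of 16067 peaks, 21.2%, 21.3% and 20.8% of the gaps between neighbouring peak centres were under 10 kb in the Ldb1 libraries, against 16.4% and 19.03% in the CTCF libraries. The groups did not overlap. The means were 21.1% ± 0.291 for Ldb1 (SD, n = 3) and 17.7% ± 1.87 for CTCF (SD, n = 2), a difference of 3.39 points (exact permutation test, two-sided, p = 0.1, adjusted 0.133). In the full lists, whose lengths differ, the difference was 0.236 points with overlapping groups (exact permutation test, two-sided, p = 0.9), and without CTCF replicate 1 it was 2.06.

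Long gaps were also more common for Ldb1. Gaps above 500 kb made up 7.22%, 7.17% and 7.03% of the gaps in the equal-length Ldb1 lists and 5.96% and 5.83% in the CTCF lists. The middle of the distribution differed less, with median gaps of 45.0, 45.3 and 45.2 kb for Ldb1 and 55.5 and 45.8 kb for CTCF. The median divided by the mean measures how even the spacing is, and would be 0.693 for sites thrown at random along a line. It was 0.285, 0.276 and 0.286 in the Ldb1 libraries, against 0.349 and 0.290 in the CTCF libraries. Spacing was thus uneven for both factors. The Ldb1 libraries were lower, by a narrow margin against CTCF replicate 2, with a mean of 0.282 ± 0.00517 (SD, n = 3) against 0.319 ± 0.0421 (SD, n = 2) and a difference of -0.0371 (exact permutation test, two-sided, p = 0.1, adjusted 0.133). It was -0.00734 without CTCF replicate 1, -0.0669 without CTCF replicate 2 and 0.00849 in the upper 50% of each list by score, where the groups overlapped.

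Ldb1 regions lay a median of 21.6 kb from the nearest CTCF region, centre to centre. The medians for the peaks of the 3 Ldb1 libraries were 21.2, 21.5 and 21.3 kb. In the other direction CTCF regions lay 26.1 kb from the nearest Ldb1 region, with 27.2 and 23.3 kb for the peaks of the CTCF libraries. The distance of Ldb1 regions to CTCF was close to that of protein-coding gene starts, 18.1 kb, and far below that of positions every 10 kb, 63.2 kb. Within 1 kb of a CTCF region were 7.62% of Ldb1 regions, against 9.02% of gene starts and 1.97% of positions every 10 kb. Within 50 kb were 72.1% of Ldb1 regions, against 73.1% and 44.9%, and more than 100 kb away were 14.2%, against 17.1% and 40.4%. For comparison, the nearest other Ldb1 region was a median of 15.1 kb away.

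The distance followed position relative to genes. Ldb1 regions at gene starts lay 11.9 kb from CTCF, those in gene bodies 21.8 kb and distal ones 51.2 kb, as medians. Score made less difference, with 19.8 kb for the strongest 10% of Ldb1 regions and 21.9 kb for the weakest 10%. The farthest were on chromosome X near Pabpc5, 2949 and 2766 kb from CTCF, and inside Pcdh11x, a protocadherin gene, 2524 kb away. The median distance rests on which CTCF peaks are counted: it was 12.2 kb to the peaks of CTCF replicate 2 alone (without CTCF replicate 1) and 44.7 kb among regions of equal-length lists, of which there were 15713 for Ldb1 and 13165 for CTCF.

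**Figure D3:**
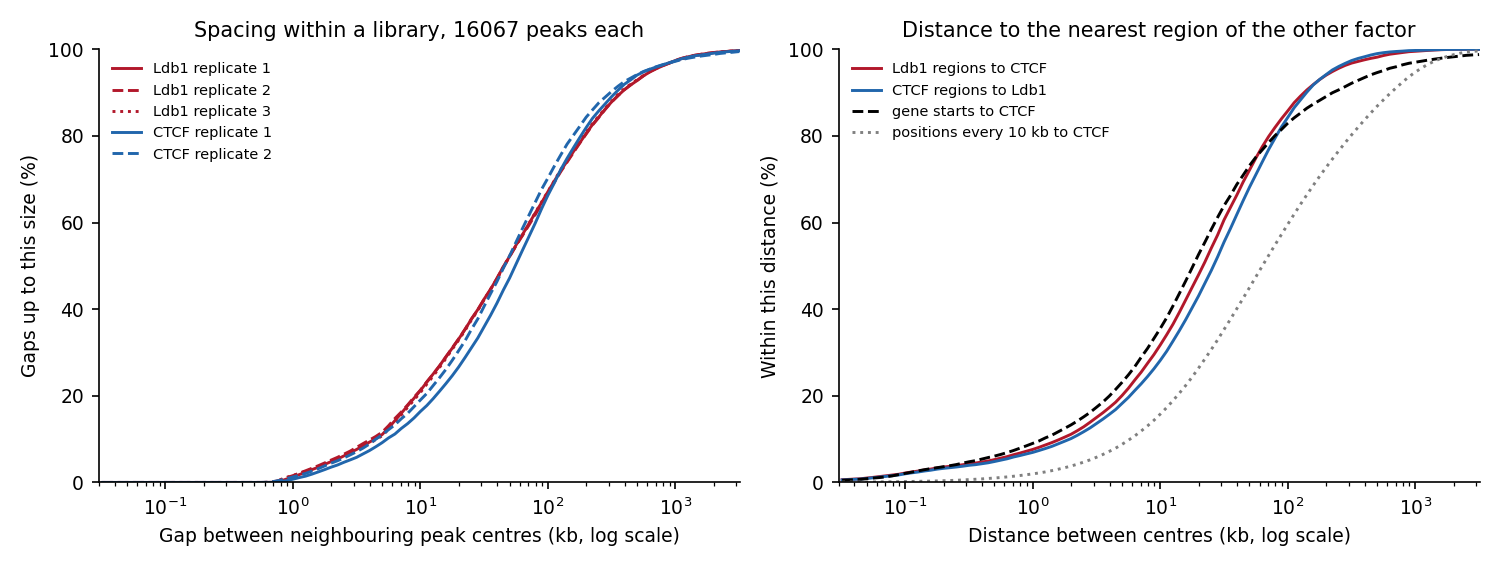
Left, cumulative share of gaps (percent) by the gap between neighbouring peak centres (kb, log scale) in lists of 16067 peaks, 1 line per library. Right, cumulative share (percent) of Ldb1 regions, CTCF regions, protein-coding gene starts and positions every 10 kb by their distance to the nearest region of the factor named (kb, log scale); Ldb1 regions run close to gene starts, with medians of 21.6 and 18.1 kb, and far left of the positions every 10 kb, at 63.2 kb.

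Few Ldb1 regions overlapped a CTCF region. There were 1029, or 4.52% of Ldb1 regions (Wilson 95% interval 4.25% to 4.79%). For background, centres within 0.355 kb of a CTCF centre, about 1 region width, were compared. They made up 4.48% of Ldb1 regions, 5.02% of protein-coding gene starts and 0.734% of positions every 10 kb. The share was thus low but near that of gene starts and above that of the positions. Of the peaks of the Ldb1 libraries, 4.76%, 4.61% and 3.91% overlapped a CTCF region, against 3.93% and 6.14% of CTCF peaks that overlapped an Ldb1 region. CTCF replicate 1 had a peak at 4.76% of Ldb1 regions and CTCF replicate 2 at 9.22%, so that the share was 9.22% without CTCF replicate 1 and 1.95% among regions of equal-length lists. At 90.4% of Ldb1 regions neither CTCF library had a peak.

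Overlap was most common at gene starts. It reached 10.0% of promoter Ldb1 regions (308 of 3081), against 3.36% in gene bodies and 2.84% of distal regions. In the peaks of the 3 Ldb1 libraries the promoter values were 9.77%, 9.47% and 8.46%, the gene body values 3.51%, 3.33% and 3.06%, and the distal values 2.97%, 3.11% and 2.78%, so the order of promoter above the others held in each library. The strongest Ldb1 region at a CTCF region lay on chromosome 2 from 103871847 to 103872187, 74.3 kb from Caprin1. Others lay inside Homer2, a postsynaptic scaffold gene, Dscam, a neuronal cell adhesion gene, and Plxna4, a semaphorin receptor gene, and 56.4 kb from Slc24a4, a sodium, potassium and calcium exchanger gene of olfactory neurons.

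The letters searched in the printed promoters were also counted in all promoter windows with a peak. The Lhx2 letters were in 15.9%, 16.02% and 28.0% of the windows with a peak of the Ldb1 libraries, against 7.32% and 5.08% of those with a peak of the CTCF libraries. All Ldb1 libraries were above both CTCF libraries, and replicate 3, the shortest list, was the highest. The difference was 13.8 points (exact permutation test, two-sided, p = 0.1, adjusted 0.133). Among all windows the share was 12.4%, between the factors. It was 22.3% of the 1233 windows with an Ldb1 region and no CTCF peak, 4.90% of the 1123 with a CTCF region and no Ldb1 peak, and 14.5% of the 186 with regions of both. Base composition moved too: the median GC content was 62.0%, 61.0% and 58.3% in the windows of the Ldb1 libraries, 59.7% and 64.0% in those of the CTCF libraries and 52.7% in all windows. Its part in these shares was not tested.

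The Ebf letters were in 11.2%, 10.4% and 12.8% of the windows with Ldb1 peaks and 7.25% and 7.97% of those with CTCF peaks, against 6.56% of all windows. The CTCF letters were in 14.6%, 14.3% and 12.7% of the Ldb1 windows and 24.0% and 19.3% of the CTCF windows, against 8.38% of all windows. Neither pair of groups overlapped. The differences were 3.87 and -7.83 points (exact permutation test, two-sided, p = 0.1 each, adjusted 0.133). The letters stand for only part of what each factor binds, and peaks away from promoters were not searched.

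More genes held CTCF than Ldb1 regions, and few were rich in 1 factor with none of the other. Regions were counted over the gene body extended by 10 kb on each side. Of 21779 protein-coding genes, 8634 (39.6%) had an Ldb1 region, 12305 (56.5%) had a CTCF region, 6586 (30.2%) had both and 7426 (34.1%) had neither. Ldb1 without CTCF was found at 2048 genes (9.4%), and CTCF without Ldb1 at 5719 (26.3%). At least 5 regions were found at 841 genes (3.86%) for Ldb1 and at 634 (2.91%) for CTCF. Of these, 48 genes (0.22% of all) had at least 5 Ldb1 regions and no CTCF region, and 64 (0.294%) had at least 5 CTCF regions and no Ldb1 region. The counts came from regions defined by the same peaks, and no test was made. Just inside the Ldb1 limit were 22 genes with 5 regions, and just outside it 61 with 4. For CTCF these numbers were 50 and 137. The Ldb1-rich genes had a median length of 96.1 kb and the CTCF-rich genes 56.2 kb, against 17.2 kb for all protein-coding genes.

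Gcnt2, which encodes an enzyme that branches sugar chains, led the Ldb1-rich genes with 10 regions on chromosome 13 from 40859768 to 40960892. Its libraries had 11, 11 and 7 Ldb1 peaks, against 1 and 2 CTCF peaks. Mmp16, a membrane-bound matrix metalloproteinase gene, had 11, 10 and 5 Ldb1 peaks, against 1 and 1 CTCF peaks, and its midpoint was 1348 kb from the nearest CTCF region. Pkia, which encodes an inhibitor of protein kinase A, had 10, 12 and 5 Ldb1 peaks, against 0 and 1 CTCF peaks. Next in this order were Phtf2, Trps1, a gene for a GATA-type zinc finger repressor, and Celf2, a splicing regulator gene, with 8 regions each, and Lrrn2 and Ccdc149 with 7. Fshr, Ttc8, Cpxm2 and Rnf182 had 6.

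Ttc8, which encodes a subunit of the BBSome, the complex that carries proteins into and out of cilia, had 7, 6 and 6 Ldb1 peaks, against 0 and 4 CTCF peaks. Its CTCF peaks in replicate 2 had no partner in replicate 1 and so formed no region. Single CTCF peaks of this kind were common. Of the 48 Ldb1-rich genes, 7 had no CTCF peak in either library, and 39 had more peaks in each Ldb1 library than in either CTCF library. The genes were chosen from these same peaks, so the counts describe them and add no support.

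The CTCF-rich genes were led by Kcnip1, which encodes a partner of potassium channels, with 9 CTCF regions on chromosome 11 from 33629339 to 33993348. It had 1, 1 and 0 Ldb1 peaks, against 9 and 10 CTCF peaks. Itpr2, an inositol trisphosphate receptor gene, had no Ldb1 peak in any library, against 9 and 8 CTCF peaks. Cgnl1, a cell junction gene, also had no Ldb1 peak, against 7 CTCF peaks in each library. Clip2, Adgrb1 and Tmem44 had 7 regions, and Myh3, Zfp469, Col26a1, Slc22a18, Ncs1 and Tmem201 had 6. Of the 64 genes, 41 had no Ldb1 peak in any library, and all 64 had more peaks in each CTCF library than in any Ldb1 library. The choice of genes largely fixed the latter count, since each CTCF region needed a peak in both CTCF libraries. An Ldb1 region needed only 2 of 3 libraries, so the count cannot be compared with the 39 of 48 Ldb1-rich genes.

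The numbers of such genes rest on the lists. Without Ldb1 replicate 1 there were 20 Ldb1-rich and 128 CTCF-rich genes, and without Ldb1 replicate 2 there were 15 and 130. Without CTCF replicate 1 there were 13 and 167, and without CTCF replicate 2 there were 32 and 80. Leaving out a library also changed the rule for a region. With 1 CTCF library left, each of its peaks counted as a region, and with 2 Ldb1 libraries left, both needed a peak. In lists of equal length there were 90 Ldb1-rich and 14 CTCF-rich genes. In the full lists without the 10 kb extension of the gene body there were 50 and 24. Which kind was the more numerous thus depended on list length and on the gene limits.

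**Figure D4:**
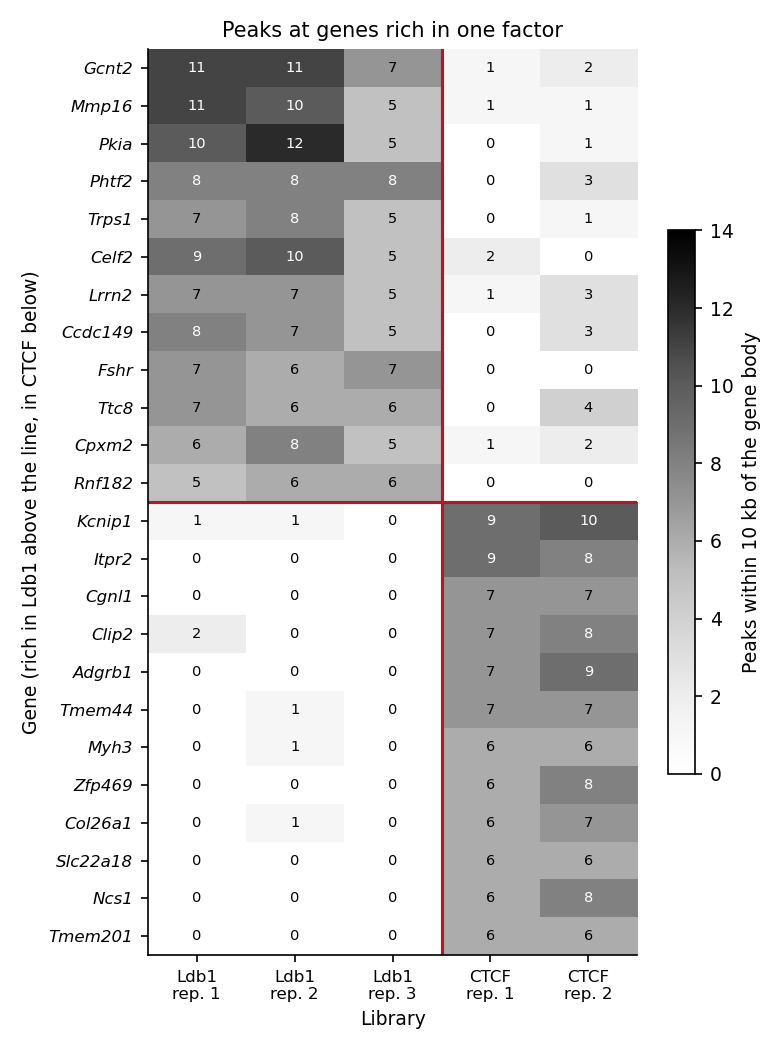
Number of peaks within 10 kb of the gene body (shade and digits) in each Ldb1 and CTCF library (columns) for the 12 leading genes rich in Ldb1 and the 12 rich in CTCF (rows). The genes were chosen from these same peaks. In each of them every library of the rich factor has more peaks than any library of the other, for example Gcnt2 with 11, 11 and 7 Ldb1 peaks against 1 and 2 CTCF peaks.

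Unbroken runs of 1 factor were also described. Walking along the chromosomes, 42.3% of neighbouring regions belonged to different factors. The longest run of Ldb1 regions with no CTCF region between them held 28 regions over 1003 kb on chromosome 5 from 132398083 to 133400898. It overlapped Auts2, a neurodevelopmental gene. How much of a run lay inside a gene was not measured. A run of 27 overlapped Clstn2, a synaptic adhesion gene on chromosome 9. One of 22 on chromosome 6 overlapped Umad1, Glcci1 and Ica1. On chromosome 18 a run of 23 lay at Zfp608 and one of 22 at Setbp1. The 2 longest runs of Ldb1 each overlapped a single protein-coding gene.

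The longest CTCF runs spanned many genes instead. The first held 32 regions over 749 kb of chromosome 7 and overlapped 32 protein-coding genes, among them Rps19 and Cd79a. The second held 28 regions and 25 genes on chromosome 16. The next were on chromosome 4 over the Skint and Cyp4a genes, 23 regions and 31 genes, and on chromosome 6 over the Klrb1 and Clec2 receptor genes of immune cells, 19 regions and 14 genes. Of all Ldb1 regions 32.9% lay in runs of at least 5, and of CTCF regions 35.99%.

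Gene length set a background for every gene list. Over all protein-coding genes, 18.5% had more Ldb1 than CTCF regions and 36.9% had more CTCF than Ldb1 regions. Among the 7860 genes under 10 kb these shares were 9.97% and 30.0%. Among genes of 50 to 100 kb they were 27.6% and 41.6%, and among the 990 genes of 200 kb or more they were 52.6% and 31.1%. Long genes thus tended to hold more Ldb1 regions, with a mean of 5.41 Ldb1 and 3.35 CTCF regions at 200 kb or more. The lists below were described by counts only.

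Axon guidance and sorting genes leaned most to Ldb1. Of 27 such genes, 24 (88.9%) had more Ldb1 regions and 2 had more CTCF regions, with a median difference of 5 regions, where the median over all genes was 0. Their median length was 278 kb, and among all genes of 200 kb or more 52.6% had more Ldb1 and 31.1% more CTCF regions. Cntn4 had 35 Ldb1 and 5 CTCF regions, from 38, 47 and 19 Ldb1 peaks and 8 and 8 CTCF peaks. Plxna4 had 32 Ldb1 and 5 CTCF regions, and Robo2, a receptor for Slit proteins, had 24 and 6. The exceptions were Sema3f, a repulsive semaphorin gene, with 2 Ldb1 and 5 CTCF regions, and Slit2, with 2 and 4.

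The transcription factors of olfactory neurons counted 14 of 24 genes (58.3%) with more Ldb1 and 7 (29.2%) with more CTCF, at a median length of 75.7 kb. Genes of 50 to 100 kb had shares of 27.6% and 41.6%. Ebf1 had 28, 33 and 23 Ldb1 peaks, against 4 and 7 CTCF peaks. Ebf2 had 30, 29 and 27 Ldb1 peaks, against 7 and 13 CTCF peaks, and Ebf3 had 17, 17 and 13, against 2 and 6. The Ebf genes, which encode helix-loop-helix factors of these neurons, thus held Ldb1 peaks well above CTCF peaks in every library. Lhx2 had 4 Ldb1 regions and 1 CTCF region. Bptf, a chromatin remodelling gene, had 1 Ldb1 region and 6 CTCF regions, and Nfic, a nuclear factor I gene, had 0 and 5.

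Of 22 genes of olfactory signal transduction, 11 (50%) had more Ldb1 and 5 (22.7%) more CTCF regions. Their median length was 65.2 kb, and genes of 50 to 100 kb had shares of 27.6% and 41.6%. Slc8a1, a sodium and calcium exchanger gene, had 14 Ldb1 regions and 1 CTCF region. Pde1c, which encodes a phosphodiesterase, had 21 and 9, and Ano2, the chloride channel of the cilia, had 15 and 7. Adcy3, the adenylyl cyclase of the cilia, had 10 and 3, and Gnal, the olfactory G-protein alpha subunit, had 12 and 5. Adcy3 had 4 and 9 peaks in the CTCF libraries. Without CTCF replicate 1 the Ldb1 minus CTCF difference was 1 at Adcy3 and 4 at Gnal. In lists of equal length it was 9 and 7. Of the shorter genes looked up by name, Omp had 2 and 2, Cnga2, a subunit of the cyclic nucleotide-gated channel, 2 and 2, and Gng13, a G-protein gamma subunit, 1 and 1. In lists of equal length the Ldb1 minus CTCF difference stayed 0 at Omp and Gng13 and was 2 at Cnga2. Cngb1, another channel subunit, had 4 Ldb1 and 6 CTCF regions.

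The synaptic and receptor trafficking lists were mixed. Among 24 genes of presynaptic vesicle release, 11 (45.8%) had more Ldb1 and 9 (37.5%) more CTCF regions. Their median length was 75.5 kb, and genes of 50 to 100 kb had shares of 27.6% and 41.6%. Syt1, a calcium sensor gene, had 17 and 2 regions, and Syt2, its relative, had 1 and 6. Among 8 receptor trafficking genes, 4 (50%) had more Ldb1 and 2 (25%) more CTCF regions. Their median length was 5.85 kb, and genes under 10 kb had shares of 9.97% and 30.0%. Rtp1, which helps odorant receptors reach the cell surface, had 4, 4 and 4 Ldb1 peaks over a gene of 4.83 kb, against 1 and 1 CTCF peaks. Of 13 immature neuron markers, 5 (38.5%) leaned each way, at a median length of 50.1 kb, beside 27.6% and 41.6% of genes of 50 to 100 kb. Of 25 ciliary transport genes, 6 (24%) leaned to Ldb1 and 10 (40%) to CTCF, at a median length of 38.5 kb. These shares were near the 19.4% and 41.6% of genes of 20 to 50 kb. Ift122, an intraflagellar transport gene, had 0 and 4 regions.

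Hox and ribosomal protein genes, most of them short, leaned to CTCF. None of 39 Hox genes had more Ldb1 regions, and 28 (71.8%) had more CTCF regions. The Hox genes rested on 1 Ldb1 region and 20 CTCF regions in all, and they lie side by side in clusters, so that genes share regions. Of 84 cytoplasmic ribosomal protein genes, 10 had more Ldb1 and 51 (60.7%) more CTCF regions. Rpl3 had no Ldb1 peak, against 4 CTCF peaks in each library. Of 18 housekeeping genes, 1 leaned to Ldb1 and 9 to CTCF. Hox and ribosomal protein genes, with median lengths of 3.74 and 3.18 kb, compare with 9.97% and 30.0% of all genes under 10 kb. Housekeeping genes, with a median length of 10.96 kb, compare with 13.5% and 42.2% of genes of 10 to 20 kb. Their share leaning to CTCF, 9 of 18, was close to that of genes of this length.

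Markers of other cells of the epithelium varied by list. An Ldb1 region was found at 3 of 16 sustentacular and gland cell markers (18.8%), 7 of 16 glial, immune and vascular markers (43.8%) and 5 of 13 basal and progenitor cell markers (38.5%), against 39.6% of all protein-coding genes. The lists hold short genes, with median lengths of 12.8, 13.6 and 5.84 kb in this order. The share with an Ldb1 region was not taken by gene length. Among the sustentacular and gland cell markers none had more Ldb1 and 6 (37.5%) had more CTCF regions, from 4 Ldb1 and 10 CTCF regions in all. Genes of 10 to 20 kb had shares of 13.5% and 42.2%. Among the glial, immune and vascular markers 3 (18.8%) had more Ldb1 and 10 (62.5%) more CTCF, beside the same shares of genes of 10 to 20 kb. C1qb, a complement gene of macrophages, had no Ldb1 peak, against 3 CTCF peaks in each library. Of the basal and progenitor cell markers 4 (30.8%) leaned to Ldb1 and 3 (23.1%) to CTCF. The shares were 9.97% and 30.0% of genes under 10 kb, and 18.5% and 36.9% of all genes. Among 1105 odorant receptor genes 61 (5.52%) had more Ldb1 and 28 (2.53%) more CTCF regions, beside 9.97% and 30.0% of genes under 10 kb. Neither factor had a region at 1004 of them, against 34.1% of all protein-coding genes. They rested on 63 Ldb1 and 37 CTCF regions.

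In the lists of the factors' own partners the CTCF share was close to that of all genes (36.9%), and the Ldb1 share was higher than theirs (18.5%). The median length was 20.7 kb for the Ldb1 complex and LIM list and 46.0 kb for the CTCF and cohesin list. Genes of 20 to 50 kb had shares of 19.4% and 41.6%. Of 22 genes of the Ldb1 complex and LIM family, 6 (27.3%) had more Ldb1 and 8 (36.4%) more CTCF regions, beside 18.5% and 36.9% of all genes. Ldb1 itself had 3 of each, and Lmo2, a LIM-only protein gene, had 4 Ldb1 regions and 1 CTCF region. Of 16 genes of CTCF and the cohesin machinery, 5 (31.3%) had more Ldb1 and 6 (37.5%) more CTCF regions. Ctcf had 1 Ldb1 and 2 CTCF regions, a difference of -1 that was 1 in lists of equal length, and Rad21, a cohesin subunit gene, had 2 and 0.

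**Figure D5:**
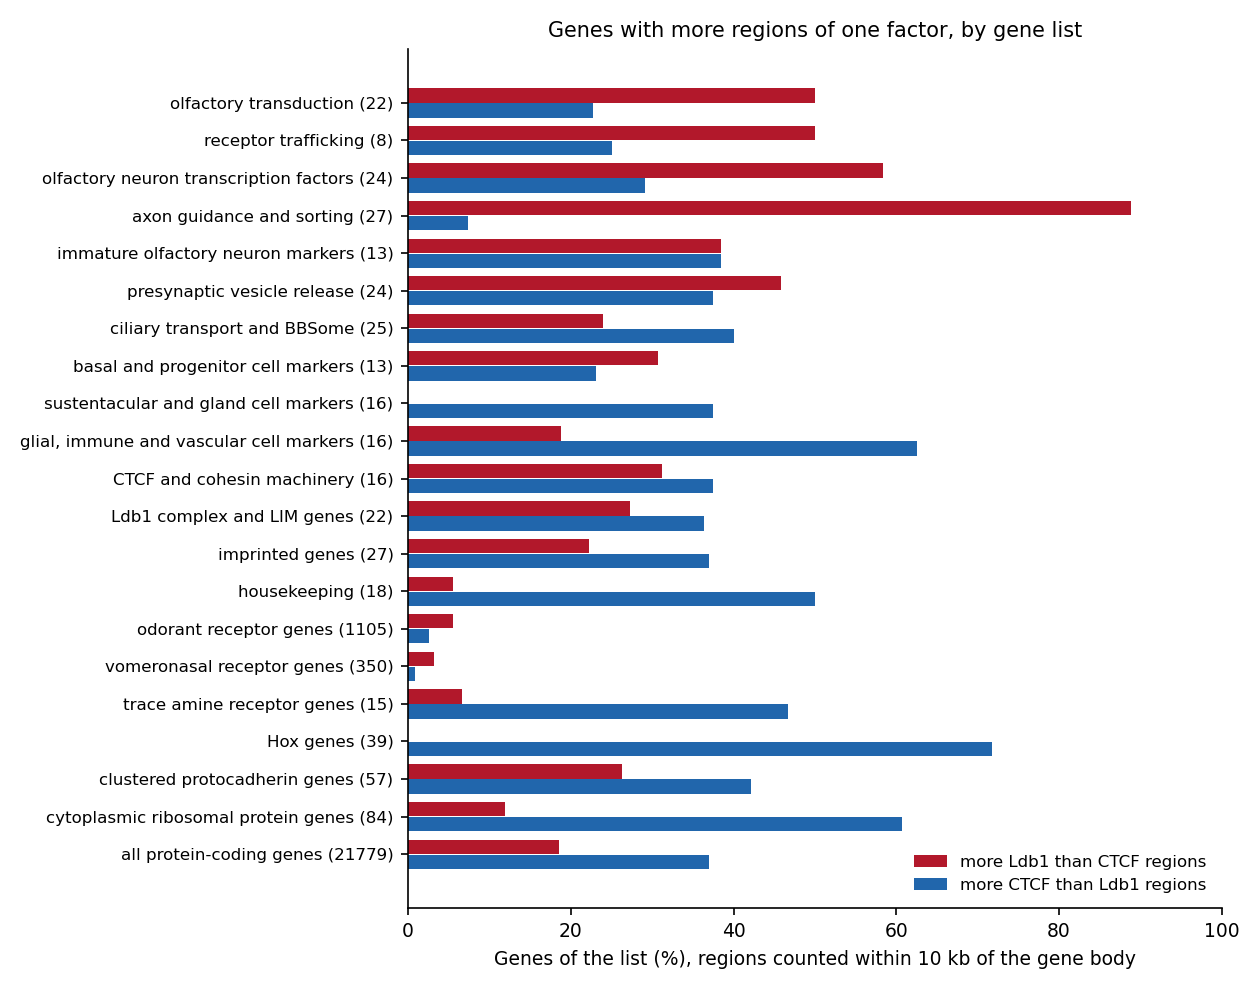
Share of the genes of each list (x axis, percent) with more Ldb1 than CTCF regions (upper bar) or more CTCF than Ldb1 regions (lower bar) within 10 kb of the gene body, with the number of genes in brackets and all 21779 protein-coding genes at the bottom. Axon guidance genes stand at 88.9% against 7.41%, beside 52.6% and 31.1% of genes of 200 kb or more. Hox genes stand at 0 against 71.8%, beside 9.97% and 30.0% of genes under 10 kb. Over all genes the shares are 18.5% and 36.9%.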

How the data were processed

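The 5 ChIP-seq libraries of Ldb1 (3) and CTCF (2) were used. Per the labels' protocols, fixed cells were sorted and chromatin was sheared by sonication. The submitters' processing notes name, without roles, the build mm10 and the tools HOMER 4.7, Picard, SAMtools 1.3.1, Bowtie2 2.3.2, cutadapt 1.9.1 and STAR 2.5.3a. What control library, threshold and filters the peak calling used is not stated in these sources. Replicates were not pooled, as every list is of 1 library. The authors deposited a score for each peak, which served only to rank peaks within a list. The 23 other samples were not analysed here.

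Peaks on scaffolds (0 to 8 per list) and 340 scaffold genes were left out. Genes came from RefSeq (GRCm38.p6, 49603 genes). Starts came from its promoter table for 27025 genes; for 22578 others, including all on chromosome 18, either end counted as a start. Distances run between centres. A region's rank is the mean, over all libraries of its factor, of its highest peak's score percentile, with 0 for a library without a peak. Library means were compared by the exact permutation test, two-sided, with Benjamini-Hochberg adjustment over 8 tests, using Python 3.11.15, numpy 2.4.6, pandas 2.3.3 and scipy 1.17.1, after the code was tested on simulated data. Members and gene lists were chosen with earlier results of these data known. Named were the 12 genes with most regions of 1 factor and none of the other (at least 5), up to 3 and 2 extremes per list, 15 genes fixed by name, and the leading runs, overlaps, far regions and promoters; not all are printed. Of the listed symbols, 8 were not among protein-coding genes (Bbs8, an older name of Ttc8, and 7 noncoding imprinted genes). The alternatives tried were other lists, limits, distances and libraries left out.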

Additional observations from a re-analysis of the deposited data

How the results depend on the processing

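The gene body and 3 letter-share differences kept their direction under every alternative tried for them, with ranges of 7.17 to 12.6, 3.19 to 5.18 (Ebf), 9.78 to 31.1 (Lhx2) and -14.1 to -5.48 (CTCF) points. So did the distal share (0.433 to 3.72) and close spacing (0.236, in full lists, to 4.71). Leaving out each library in turn gave -7.37 to 0.826 for the promoter share, the sign turning without CTCF replicate 2, 0.433 to 2.98 for the distal share, 2.06 to 4.71 for close spacing and -0.0669 to -0.00734 for evenness. Evenness turned to 0.00849 with the upper 50% of each list by score. The cause was not tested in either case.

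The values without a test moved more. Leaving out a library gave an overlap with CTCF of 3.85% to 9.22%, a median distance of 12.2 to 21.8 kb, 13 to 43 Ldb1-rich genes and 65 to 167 CTCF-rich genes. These ranges mix a looser and a stricter rule for regions. With 1 CTCF library left each of its peaks was a region, and with 2 Ldb1 libraries left both needed a peak. Regions in all libraries of a factor gave 3.88%, 15 and 130 genes. The upper 50% of each list by score gave 1.55%, 49.2 kb, 62 Ldb1-rich and 10 CTCF-rich genes. Lists of equal length gave 1.95%, 44.7 kb, 90 and 14 genes. A reciprocal overlap of 50% gave 21.9 kb, and centres within 1 kb gave 7.62%. Without the 10 kb extension there were 50 Ldb1-rich and 24 CTCF-rich genes, and with 50 kb there were 46 and 552. A limit of 3 regions gave 207 Ldb1-rich and 801 CTCF-rich genes, and allowing 1 region of the other factor gave 152 and 147. These settings use fewer peaks or other limits by construction, and beyond that the cause was not tested. For 34 named genes 374 further values were made, of which 139 moved. The sign turned for Ctcf alone, whose Ldb1 minus CTCF difference of -1 region was 1 in the upper 50% of each list by score and 1 in lists of equal length.

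Deviations of same-numbered libraries over genes correlated at -0.0127 and -0.0299. With only 2 CTCF libraries their deviations mirror each other, so these values cannot settle whether replicate numbers pair the libraries. With a replicate block on 2 pairs the differences were -1.71 (promoter), 1.36 (distal), 7.79 (gene body), 3.56 (close spacing), -0.0389 (evenness), 3.19 (Ebf), 9.78 (Lhx2) and -7.26 (CTCF), where the smallest exact p is 0.5. No call changed, since none could be made. The unknown depth limits what an absent peak means.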

Other observations

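The balance of the factors differed between chromosomes. Chromosome 18 had 816 Ldb1 and 697 CTCF regions, a ratio of 1.17, and chromosome 13 had 1036 and 926, a ratio of 1.12. Chromosome 7 had 1251 and 1672, a ratio of 0.748, chromosome 11 had 1460 and 1932, a ratio of 0.756, and chromosome X had 450 and 584, a ratio of 0.771. Chromosome 18 holds 511 protein-coding genes and chromosome 7 holds 2025. Chromosome Y had 2 Ldb1 and 10 CTCF regions. No test was made of these ratios.

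Receptor and protocadherin genes lie in clusters. Over all protein-coding genes 39.6% had an Ldb1 region, 56.5% a CTCF region and 30.2% both. Of 350 vomeronasal receptor genes 11 (3.14%) had an Ldb1 region and 3 (0.857%) a CTCF region. No gene had both, which says little with so few genes of either kind. Of 15 trace amine receptor genes, Taar7d (6.67%) had an Ldb1 region and 7 genes (46.7%) had a CTCF region, from 1 Ldb1 and 4 CTCF regions in all. The 57 clustered protocadherin genes, which share long bodies, rested on 5 Ldb1 and 13 CTCF regions. An Ldb1 region was found at 36 of them (63.2%) and a CTCF region at 38 (66.7%), with both at 34. More Ldb1 regions were at 15 (26.3%) and more CTCF regions at 24 (42.1%). Their median length was 90.3 kb, and these shares were near the 27.6% and 41.6% of genes of 50 to 100 kb. Pcdha1 had 3, 4 and 2 Ldb1 peaks, against 2 and 6 CTCF peaks, and was counted with 2 Ldb1 regions and 1 CTCF region. Pcdhga1 had 2, 3 and 0 Ldb1 peaks, against 11 and 14 CTCF peaks. Among 27 imprinted genes 6 (22.2%) had more Ldb1 and 10 (37.0%) more CTCF regions, near the 18.5% and 36.9% of all genes. Of these, Cdkn1c, a growth inhibitor gene, had no Ldb1 peak, against 3 CTCF peaks in each library.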
